A study of Mus musculus with 21 samples.

Results

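The regions described here are 1497 binding sites of estrogen receptor alpha (ERα) in mouse visceral fat that were called both with estradiol and with vehicle and that lie away from the ends of genes. They were selected on measured peak calls from the 20715 peaks of the estradiol list of vWAT (the label of the visceral white fat) on chromosomes 1 to 19 and X, of which they make up 7.23%. Of these 20715 peaks, 4700 (22.7%) overlapped a peak of the vWAT vehicle list by at least 1 bp. Of those held with vehicle, 1764 were distal, which means that the summit lay more than 1 kb from both ends of every protein-coding gene in mm10, and 267 of these were removed because scWAT, BAT and Liver all held them too. The remaining 1497 are called members below. The 13912 distal peaks with no vehicle peak that also miss at least 1 of the other lists serve as the comparison and are called estradiol-only. The vehicle list was shorter, with 7400 peaks, so a missing vehicle peak need not mean that binding depended on the hormone.

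All animals were CD-1 mice aged 10 weeks that received estradiol or vehicle before tissue was taken. The ERα chromatin immunoprecipitation (ChIP-seq, antibody sc543) comprised 4 libraries of vWAT with estradiol and 2 with vehicle, and, all with estradiol, 3 of scWAT, 1 of BAT and 2 of Liver. The sources used here do not give the sex of the mice, whether their ovaries were removed, the dose or the time, so the hormone level behind the word vehicle is not known. Each group had 1 deposited peak list, so no value has a spread between animals and no test between conditions was possible. The depth behind the lists is unknown here. Shares carry 95% Wilson intervals, which cover counting error over peaks, or over windows where these are counted, alone. Enrichment is the authors' ratio for each peak and is compared only among peaks of 1 list. Against marker genes fixed for each tissue, the vWAT estradiol list had a peak within 25 kb of 3 of 3 white adipocyte genes, 2 of 3 brown adipocyte genes, 1 of 3 hepatocyte genes and 3 of 3 mesothelial genes, and the vehicle list of 1, 1, 0 and 2 of 3. In the same order, scWAT had 2, 1, 0 and 1, BAT 1, 1, 0 and 1, and Liver 1, 1, 2 and 1. Of 2 macrophage and 2 endothelial genes, the Liver list reached all, and each other list reached 1 of each kind. The BAT list thus reached 1 gene of every kind but the hepatocyte one. Its adipocyte genes were Adipoq, which had a peak in every list, and Zic1, so these counts do not set brown and white adipocyte genes apart. A peak near a gene does not measure that gene's expression.

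ERα is a ligand-activated transcription factor. With estradiol bound it docks as a dimer on the estrogen response element, a short palindrome, or is tethered through other factors such as AP-1, and much of this binding lies in enhancers far from promoters. In fat the receptor is known for its part in depot size and lipid handling.

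Sequence could be read at the members whose summit fell in a RefSeq window around an annotated transcript start (GRCm38.p6, from 250 bases before to 50 after the start). Of 1454 members on chromosomes with such windows, 121 (8.32%, interval 7.01 to 9.85%) lay in one, against 2.33% of all distal vWAT estradiol peaks and 1.24% (1.07 to 1.45%) of the estradiol-only peaks. In 89 of the 121 a start of a protein-coding gene was involved, and in 32 a start of a long noncoding RNA alone. For the 167 estradiol-only peaks in a window these counts were 75 and 92. The rule measures distance to the outer ends of the gene span, so a start inside a gene still counts as distal. The stretches below were chosen after their values were seen. They come from the 3 strongest members at protein-coding starts (Cep41, Dcaf11, Ibtk), the strongest found in Liver and not in scWAT (Hnrnpl), the start of a Y-box protein gene found in scWAT and Liver (Ybx1) and an imprinted antisense RNA (Kcnq1ot1). Each is written 5′ to 3′ on the strand of the gene and ends before the start of the transcript. Capitals mark CCAAT (the NF-Y box), AGATAAG (bound by GATA factors) and GGGCGGG (bound by SP/KLF factors), or their reverse complements. Every stretch shown holds CCAAT on either strand, whereas 55.4% of the windows with a member summit did. Some members stronger than those at Ybx1 and Kcnq1ot1 had none in their stretch and are not shown.
Cep41, chr6:30693750-30693840, minus strand: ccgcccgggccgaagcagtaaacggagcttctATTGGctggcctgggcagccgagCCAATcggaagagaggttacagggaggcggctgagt
Dcaf11, chr14:55560780-55560900, plus strand: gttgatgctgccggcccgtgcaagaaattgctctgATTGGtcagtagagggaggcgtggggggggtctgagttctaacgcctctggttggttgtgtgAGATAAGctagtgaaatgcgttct
Ibtk, chr9:85749335-85749425, minus strand: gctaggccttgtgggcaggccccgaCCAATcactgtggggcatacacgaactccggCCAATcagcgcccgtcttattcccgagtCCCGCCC
Hnrnpl, chr7:28810656-28810776, plus strand: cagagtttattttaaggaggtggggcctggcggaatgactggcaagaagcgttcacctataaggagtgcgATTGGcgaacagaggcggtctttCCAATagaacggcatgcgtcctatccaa
Ybx1, chr4:119294598-119294718, minus strand: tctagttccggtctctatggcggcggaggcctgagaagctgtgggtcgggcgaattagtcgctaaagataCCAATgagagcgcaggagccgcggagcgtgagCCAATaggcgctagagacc
Kcnq1ot1, chr7:143296605-143296725, minus strand: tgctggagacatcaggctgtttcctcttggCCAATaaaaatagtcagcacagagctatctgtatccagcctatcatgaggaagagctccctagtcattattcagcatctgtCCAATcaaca

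The next set shows the estrogen response element itself, GGTCANNNTGACC, in capitals. The windows of 130 starts held a member summit, and none of them had the exact palindrome. This allows a share of up to 2.31% when a count of 0 is taken to allow 3, and of up to 2.87% by the Wilson interval. The exact palindrome was in 4 of 190 windows with an estradiol-only summit (2.11%) and in 23 of all 32619 windows (0.0705%). At the share over all windows, a count of 0 in 130 does not set the members apart. The only member window with at most 1 mismatch was that of Fuz, a gene of planar cell polarity. The 4 others are the estradiol-only summits whose window had the exact palindrome, for contrast.
Fuz (member, 1 mismatch), chr7:44896024-44896078, plus strand: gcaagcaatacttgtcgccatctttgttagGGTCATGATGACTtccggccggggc
Gm31295 (estradiol-only), chr4:136387373-136387445, plus strand: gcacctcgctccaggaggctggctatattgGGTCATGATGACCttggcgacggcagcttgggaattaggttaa
Tex45 (estradiol-only), chr8:3470766-3470838, plus strand: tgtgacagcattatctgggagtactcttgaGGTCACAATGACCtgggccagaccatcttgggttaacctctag
Lmntd1 (estradiol-only), chr6:145434926-145434997, minus strand: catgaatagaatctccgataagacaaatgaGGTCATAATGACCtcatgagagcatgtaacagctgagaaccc
Gm35041 (estradiol-only), chr12:76972827-76972899, plus strand: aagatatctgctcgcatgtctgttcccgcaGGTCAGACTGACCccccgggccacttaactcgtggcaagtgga

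The 4 estradiol-only peaks had an enrichment of 6.78 at Gm31295, 6.77 at Tex45, 6.25 at Lmntd1 and 5.10 at Gm35041, and the Fuz member had 5.43 with estradiol and 4.38 with vehicle. The letters differed between the kinds of window in both directions. AGGTCA, a single arm of the palindrome with the base before it, on either strand, was in 16.2% (10.8 to 23.4%) of the 130 member windows, in 44.2% (37.3 to 51.3%) of the 190 windows with an estradiol-only summit and in 16.2% of all 32619 windows. The palindrome with up to 1 mismatch was in 0.769%, 5.79% and 0.883% of them. A palindrome that follows an A also counts as a single arm. TTGCNNAA, bound by C/EBP factors, was in 8.46%, 21.1% and 10.9%, and TGANTCA, the AP-1 site, in 4.62%, 10.5% and 7.85%. Member windows held the letters of ETS, SP/KLF and NF-Y sites more often than the other windows did. CCGGAAG (ETS factors) was in 26.9% (20.04 to 35.1%) of them, against 6.84% and 8.92%, GGGCGGG in 38.5% against 17.4% and 25.8%, and CCAAT in 55.4% against 39.0% and 37.6%. The ETS, SP/KLF, NF-Y and NRF1 letters were added after the first results were seen. Base composition moved with these counts: the median GC content was 58.5% in member windows, 52.0% in estradiol-only windows and 53.0% in all, with a median of 19, 6 and 7 CpG per window of 300 bases. The part of composition, or of the mix of protein-coding and noncoding starts, in the motif shares was not tested. A summit can lie in the windows of several starts: the 130 windows held summits of 121 members, and the 190 those of 167 estradiol-only peaks. Some windows thus share sequence, which the intervals do not allow for. A match is not a bound site, and windows at starts are a small share of the members. The other members have no sequence here.

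**Figure D1:**
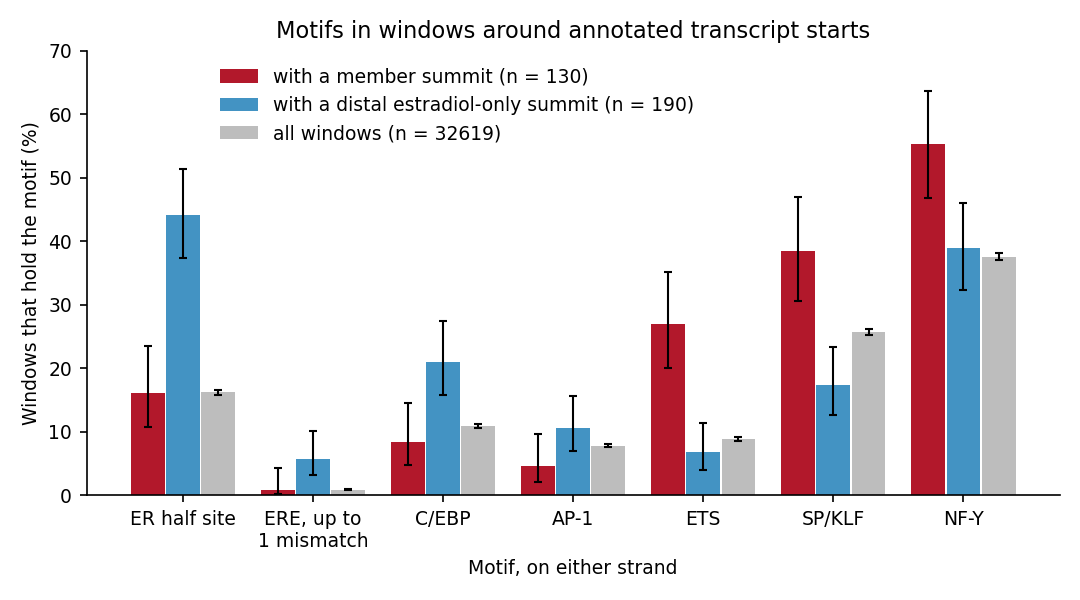
Share of start windows (y axis, %) that hold each motif on either strand (x axis), for windows with a member summit, with a distal estradiol-only summit, and all windows. Bars carry 95% Wilson intervals over windows, some of which overlap. AGGTCA (a single arm of the element) was in 44.2% of estradiol-only windows and in 16.2% of member windows, whereas CCGGAAG (ETS) was in 26.9% of member windows and in 6.84% of estradiol-only windows.

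The members had peaks in other tissues more often than the estradiol-only peaks did. The scWAT list held 1024 of the 1497 members (68.4%, 66.0 to 70.7%), the Liver list 431 (28.8%, 26.6 to 31.1%) and the BAT list 180 (12.02%, 10.5 to 13.8%). Of all vWAT estradiol peaks, 48.4% were in the scWAT list, 22.8% in the Liver list and 11.1% in the BAT list, so the members' BAT share lay near that of all peaks. The 3 lists had 17971, 21411 and 5193 peaks, of which 88.0%, 46.45% and 33.5% reached a −log10 q-value of 2. The shares of different tissues are therefore not on a common scale. Of the estradiol-only peaks, 37.8% were in scWAT, 6.25% in Liver and 3.05% in BAT. The rule takes out peaks found in all 3 lists, so a member that is in 2 of them cannot be in the third. This lowers the members' shares and ties the lists to each other, and for this reason shares are also given for all 1764 distal held peaks. With the 267 such peaks put back, 73.2%, 39.6% and 25.3% of the 1764 distal held peaks were in scWAT, Liver and BAT, against 38.03%, 6.64% and 3.45% of 13970 distal peaks without a vehicle peak. Members were also wider than estradiol-only peaks, with a median of 538 bp against 405 bp, and the part of width in these shares was not tested.

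The 7 patterns of presence split the members unevenly. No other list held 354 members (23.6%, 21.6 to 25.9%), while 58.1% of the estradiol-only peaks were in no other list. scWAT alone held 548 members (36.6%), scWAT and Liver 330 (22.04%), and scWAT and BAT 146 (9.75%). Liver alone held 85, BAT alone 18, and BAT with Liver 16. The scWAT with Liver pattern took 3.08% of the estradiol-only peaks. The vWAT estradiol enrichment differed by pattern: its median was 12.5 in the 146 members shared with scWAT and BAT and 6.92 in those shared with scWAT alone. It was 6.27 with scWAT and Liver, and 4.59 in those found in vWAT alone. The estradiol-only peaks had the same order, with medians of 8.29, 5.89, 5.325 and 4.40.

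**Figure D2:**
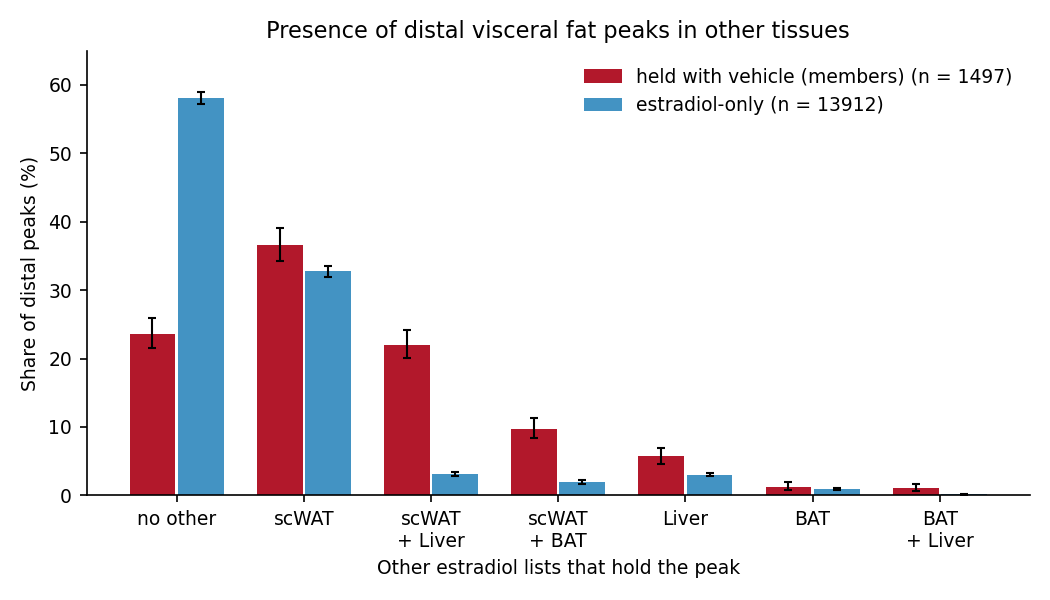
Share of distal vWAT estradiol peaks (y axis, %) by the other estradiol lists that hold them (x axis), for the 1497 members and the 13912 estradiol-only peaks; bars carry 95% Wilson intervals over peaks. Members were in no other list for 23.6% of peaks against 58.1%, and in scWAT with Liver for 22.04% against 3.08%.

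Presence in scWAT moved with the strength of the vWAT peak. When these distal peaks were divided into 4 bins by vWAT estradiol enrichment, at cuts that split members and estradiol-only peaks into equal parts, the share of members in scWAT was 46.6% in the lowest bin, 48.7% and 58.8% in the middle bins and 88.9% in the highest. The estradiol-only peaks went from 20.3% through 22.2% and 38.3% to 74.9%. In Liver the members stood at 24.4%, 28.2%, 32.4% and 28.8%, but 212 of the 267 peaks that the rule removed fell in the highest bin. Over all distal held peaks the Liver share was 29.1%, 30.9%, 37.7% and 46.1%, while that of all distal peaks without a vehicle peak was 6.55%, 6.54%, 6.64% and 6.88%. In BAT the held peaks stood at 15.8%, 11.2%, 12.5% and 37.96%, and those without a vehicle peak at 2.06%, 2.36%, 2.39% and 7.405%. In each of the 4 bins the intervals of held and estradiol-only peaks did not overlap for any of the 3 tissues. This was so with the removed peaks and without them. The highest bin, with 660 members and 3178 estradiol-only peaks, had no limit above 6.205. The 1002 strongest peaks included 176 members and 254 estradiol-only peaks, so strength was not alike within that bin. The intervals cover counting error over peaks alone and are no test, and the bins did not match peak width.

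**Figure D3:**
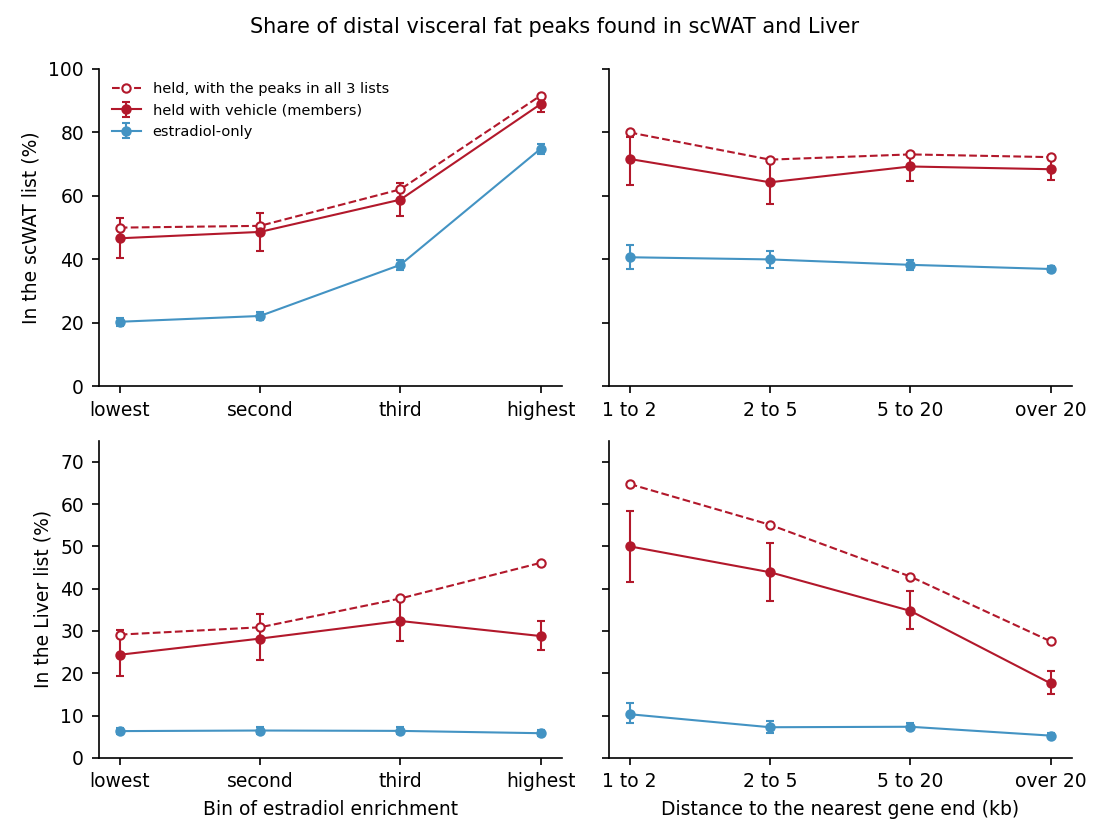
Share of distal vWAT peaks found in the scWAT list (top, %) and the Liver list (bottom, %), by bin of vWAT estradiol enrichment (left, 4 bins) and by distance of the summit to the nearest end of a protein-coding gene (right, kb); points carry 95% Wilson intervals, and the dashed line adds the held peaks found in all 3 lists, which the rule removes. Liver held 67 of the 134 members at 1 to 2 kb from a gene end and 17.6% of those beyond 20 kb (64.7% and 27.5% with the removed peaks), while scWAT held 71.6% and 68.4%.

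The members' enrichment with estradiol ran from 1.66 through a median of 5.73 to 21.1, and that of their vehicle peaks from 1.66 through 4.52 to 17.8. The estradiol-only peaks had a median of 4.65 and a highest value of 21.5. Of the 1002 strongest peaks of the estradiol list (the first 1000 and those tied with them), 176 were members and 254 were estradiol-only peaks. In the vehicle list the peaks under members had a median of 4.52, against 6.95 for the 3220 vehicle peaks that overlap other estradiol peaks and 4.17 for the 1779 distal peaks called with vehicle alone. The 3220 include those under peaks found in all 3 other lists, which the rule takes out of the members. The vehicle median was 9.33 for the 267 removed distal peaks. It was 5.38 for the 1770 held peaks at gene ends that miss at least 1 list. The members' summits in both vWAT lists lay a median of 78 bp apart (0 to 666 bp), and 859 members (57.4%) had them within 100 bp. Across the 1497 members the values of the lists were related with a Pearson r of 0.39 and a Spearman coefficient of 0.35, given as a description, since the points share their lists and were chosen for being in both.

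The 100 members strongest with estradiol and the 100 strongest with vehicle had 20 in common. Of the first, 1 lay in a start window, and of the second, 24. By tissue, all 100 of the first were in scWAT, 47 in BAT and 8 in Liver, and of the second 89, 24 and 55. The 47 members in scWAT and BAT could not be in Liver under the rule. Among all 1764 distal held peaks, the 100 strongest with estradiol held 43 of the removed peaks, and 47 were in Liver, 72 in BAT and 7 in a start window. The 100 strongest with vehicle held 81 of the removed peaks, and 89 were in Liver, 89 in BAT and 27 in a start window. The plot of both values has 2 arms, and the cuts that follow were set after seeing it. Of 147 members with an estradiol enrichment of at least 10 and a vehicle enrichment under 5, Liver held 14 (9.52%, 5.76 to 15.4%), 1 lay in a start window and 5 lay within 2 kb of a gene end. BAT held 44 of the 147 and scWAT 144, and a member in both of these lists was barred from Liver. With the 7 removed peaks that meet the same cuts, Liver held 21 of 154 (13.6%, 9.09 to 19.9%). Of 46 members with a vehicle enrichment of at least 10, Liver held 25 (54.3%, 40.2 to 67.8%), 13 lay in a start window and 10 lay within 2 kb of a gene end. With the 116 removed peaks that meet this cut, Liver held 141 of 162 (87.0%, 81.0 to 91.4%). In 4 bins of vehicle enrichment, from low to high, the number of members in start windows was 19, 17, 27 and 58.

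**Figure D4:**
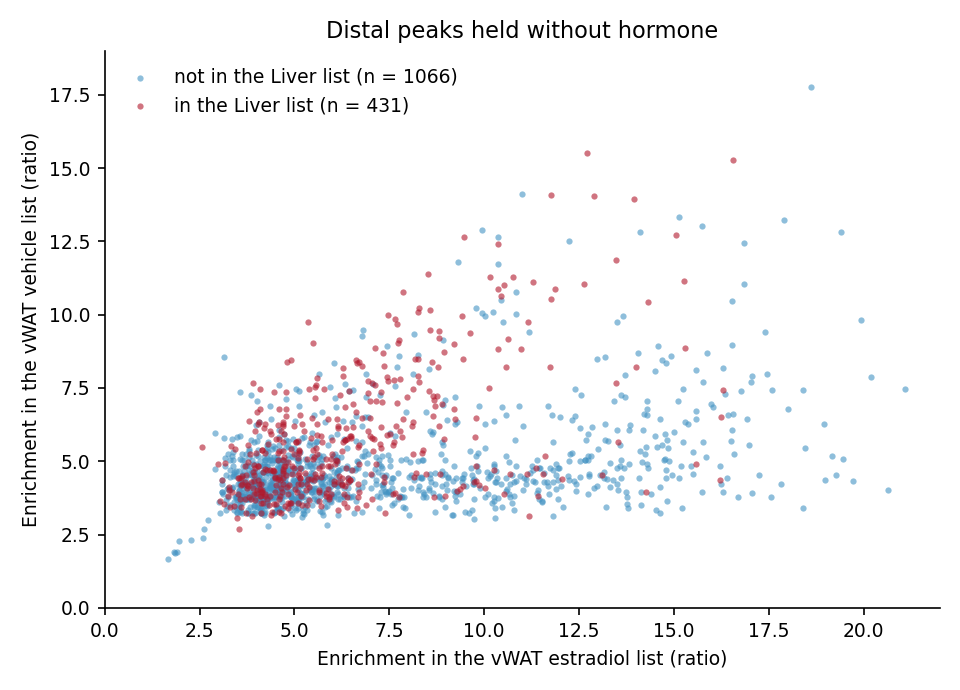
Each point is 1 of the 1497 members, placed by the authors' enrichment ratio in the vWAT estradiol list (x axis) and of its strongest overlapping peak in the vWAT vehicle list (y axis), and coloured by presence in the Liver list. Points high on both axes are often in Liver (19 of 36 with both ratios at least 10), and points low on the vehicle axis and high on the estradiol axis seldom are (14 of 147), also with the removed peaks added (21 of 154).

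The member with the highest estradiol enrichment lay in Cacna1a, which codes for the pore of a neuronal calcium channel, at chr8:84634756-84635429. Its enrichment was 21.1 in vWAT with estradiol, 7.48 with vehicle, 16.4 in scWAT and 7.24 in BAT, and no Liver peak overlapped it. The second lay in Rapgef2, an exchange factor for Rap GTPases, at chr3:79233564-79234140, with 20.6 with estradiol, 4.01 with vehicle, 14.2 in scWAT and 7.96 in BAT. The next were in Gm12248 (20.2 with estradiol, 7.87 with vehicle), 10.4 kb from Rrp1b, a nucleolar protein gene (19.9 and 9.81), and in Trabd2b, an inhibitor of Wnt ligands (19.7 and 4.32). The rest of the strongest 8 lay at chr2:167844464-167845066 with no protein-coding gene within 50 kb (19.4 and 5.09), 16.1 kb from the epithelial ETS factor gene Elf3 (19.4 and 12.8) and in the kinase gene Stk39 (19.3 and 4.52). All 8 were in scWAT and all but the Stk39 peak in BAT, so that the rule kept 7 of them out of Liver. Among all distal held peaks, 7 of the 8 strongest were in all 3 lists.

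The 8 strongest by vehicle enrichment shared no peak with those. The highest lay in the centrosomal gene Cdk5rap2 at chr4:70377927-70378464, with 17.8 with vehicle, 18.6 with estradiol, 9.52 in scWAT and 7.15 in BAT. The peak at the start of Cep41, a gene of cilia and centrosomes, had 15.3 with vehicle, 16.6 with estradiol, 5.74 in scWAT and 9.11 in Liver. Of the 8, 4 lay inside a gene between 1.45 and 1.76 kb from its end and were all in scWAT and Liver. They were Kat6b, a histone acetyltransferase gene (15.5 with vehicle, 12.7 with estradiol, 8.07 in Liver), Vps45, a gene of vesicle fusion (14.1, 11.8 and 10.7), the zinc finger gene Zfp574 (14.1, 12.9 and 7.09) and Ap3m2, which codes for an adaptor subunit (14.0, 13.9 and 7.39). The remaining pair had no protein-coding gene within 50 kb. They lay at chr4:64497734-64498175 (14.1 with vehicle, 11.0 with estradiol) and chr3:56575292-56575881 (13.3 and 15.1), and both were in scWAT and BAT and not in Liver.

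Each pattern of presence had its own leading members. Of the members in no other list the strongest lay 11.5 kb from Glt1d1 (13.0 with estradiol, 8.47 with vehicle) and in Prkar2a, a regulatory subunit of protein kinase A (12.2 and 4.49). In scWAT alone the Stk39 peak was followed by one in the AMP deaminase gene Ampd3 (18.98 and 4.36). In Liver alone the leaders were a peak 11.9 kb from Gm14496 (14.0 and 8.22) and the start of the splicing factor gene Hnrnpl (10.5 and 11.0). In scWAT with Liver, Cep41 was followed by a peak at chr13:30084808-30085491 with no protein-coding gene within 50 kb (16.3 and 7.42). The pattern of scWAT with BAT had the highest values and was led by the Cacna1a and Rapgef2 peaks. The patterns with BAT and without scWAT had lower ones: Urb1 (6.61 and 4.76) and the Hedgehog factor gene Gli2 (6.48 and 4.71) led BAT alone, and Zbtb20 (8.64 and 7.23) and Fam120c (8.36 and 5.30) led BAT with Liver. At Ybx1, which codes for a Y-box binding protein, the values were 10.2 with estradiol, 11.3 with vehicle, 2.83 in scWAT and 7.996 in Liver. At Kcnq1ot1 they were 10.2, 10.1 and 3.44 in scWAT, with no Liver peak.

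By position, 746 members (49.8%, 47.3 to 52.4%) had the summit inside a protein-coding gene, close to the 50.7% of all distal peaks. The members lay somewhat nearer to genes when outside them: 13.4% (11.7 to 15.2%) were 1 to 10 kb away, against 10.7% (10.1 to 11.2%) of the estradiol-only peaks, and 10.3% (8.85 to 11.9%) were over 100 kb away, against 13.9% (13.3 to 14.5%). Presence in Liver followed the distance to the nearest gene end. It was found for 67 (41.6 to 58.4%) of the 134 members at 1 to 2 kb, 43.9% of the 196 at 2 to 5 kb, 34.8% of the 423 at 5 to 20 kb and 17.6% (15.0 to 20.5%) of the 744 beyond 20 kb. For the estradiol-only peaks it went from 10.3% to 5.25%. Over all distal held peaks it was 64.7%, 55.1%, 42.9% and 27.5% at the same distances. In scWAT the members stood between 64.3% and 71.6% at these distances. The 121 members in a start window were in Liver for 77 (63.6%, 54.8 to 71.7%), against 25.9% (23.6 to 28.3%) of the 1333 others on the same chromosomes. Over all distal held peaks the Liver shares were 76.3% (69.7 to 81.9%) of 186 and 35.3% (32.98 to 37.8%) of 1528. The BAT share was 5.79% against 12.3% among members and 38.7% against 23.5% among all distal held peaks, so its direction turned with the removal of peaks found in all 3 lists. Of the 2936 held peaks at gene ends, which the rule leaves out, 83.3% were in Liver and 42.3% in BAT.

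Members often had estradiol-only peaks around them. Within 25 kb, 795 members (53.1%, 50.6 to 55.6%) had at least 1 estradiol-only peak, against 55.7% (54.8 to 56.5%) of the estradiol-only peaks themselves. Of those with such a neighbour, 36.7% of members and 58.2% of estradiol-only peaks had a stronger estradiol-only peak there. The estradiol-only peaks were set against their own kind, and members had the higher median enrichment (5.73 against 4.65). These 2 shares are therefore not a like comparison. Against any other vWAT estradiol peak within 25 kb, 450 of 957 members and 5357 of 8509 estradiol-only peaks had a stronger neighbour. Another member lay within 25 kb of 172 members (11.5%). An enrichment under 2.5 in both vWAT lists was found for 6 members. They lay at chr9:3004203-3028070 and chr17:39844466-39845483, all were in scWAT with values between 1.89 and 2.43, and none was in Liver. No list of regions prone to excess reads was applied here.

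A protein-coding gene was counted with a member when a summit lay in its span or within 25 kb of it. This held for 1676 of 21631 genes (7.75%), of which 966 (57.6%) also had a distal estradiol-only peak, against 35.3% of all genes. The counts over the fixed gene lists are descriptions and were drawn up with earlier results known. They are not independent. Nr3c1 and Rxra stand among both adipogenic factors and nuclear receptors, and Nr1d1 among both nuclear receptors and clock genes. A peak can also count for neighbouring genes: Thra and Nr1d1 had the same member values (4.58 and 6.059), as had Col3a1 and Col5a2 (5.765 and 4.172). Long genes have more room for a peak, and the counts were not adjusted for this. Most of the listed genes with a member also had estradiol-only peaks.

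Estrogen response genes had a member at 5 of 20, against estradiol-only peaks at 11 of 20. At Greb1, a growth regulator and standard estrogen target, the member at chr12:16760295-16760852 had 9.66 with estradiol, 4.77 with vehicle and 9.59 in scWAT. It was 1 of 4 peaks, and the strongest of the 4 was an estradiol-only one at 16.9. At Pgr, the progesterone receptor gene, the member at chr9:8970205-8970877 lay 1.92 kb outside the gene with 14.3 with estradiol, 6.59 with vehicle and 10.3 in scWAT. An estradiol-only peak inside Pgr reached 15.3. At Esr1, which codes for ERα itself, the member at chr10:4590811-4591732 lay 20.8 kb outside the gene with 11.1, 4.55, 9.02 in scWAT and 6.01 in Liver. It was the strongest of 15 peaks there, and the other 14 had no vehicle peak.

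Among adipogenic transcription factors 8 of 18 genes had a member, and 14 of 18 an estradiol-only peak. Zfp423, a factor of preadipocyte commitment, had 1 member at chr8:87932715-87933410 with 16.5 with estradiol, 10.5 with vehicle, 14.0 in scWAT and 10.4 in BAT, the strongest of its 9 peaks. Srebf1, the lipogenic factor SREBP-1, had one 22.3 kb outside the gene with 14.5, 5.48, 10.9 in scWAT and 6.14 in BAT. Pparg, the master regulator of fat cells, was chosen after its values were seen: its member lay 21.2 kb outside the gene with 9.23, 6.26 and 5.82 in scWAT, and its 5 estradiol-only peaks reached 5.03. Klf15, likewise chosen afterwards, had 6.09 with estradiol and 6.84 with vehicle, and Nfia had 3 members at 3.96 to 4.46 with estradiol and 5.58 to 7.36 with vehicle, all in Liver.

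Nuclear receptor and cofactor genes had a member at 10 of 25, and an estradiol-only peak at 18 of 25. Nr3c1, the glucocorticoid receptor gene, had 2 peaks and both were members, with 10.8 and 5.15 with estradiol and 5.73 and 6.59 with vehicle; the first was in scWAT and BAT and the second in scWAT and Liver. Chosen after their values were seen, the vitamin D receptor gene Vdr had a member at 9.46 and 4.58, the coactivator gene Ncoa2 one at 7.79 and 6.03, and Rxra, the common dimer partner of nuclear receptors, one at 5.15 and 4.77.

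**Figure D5:**
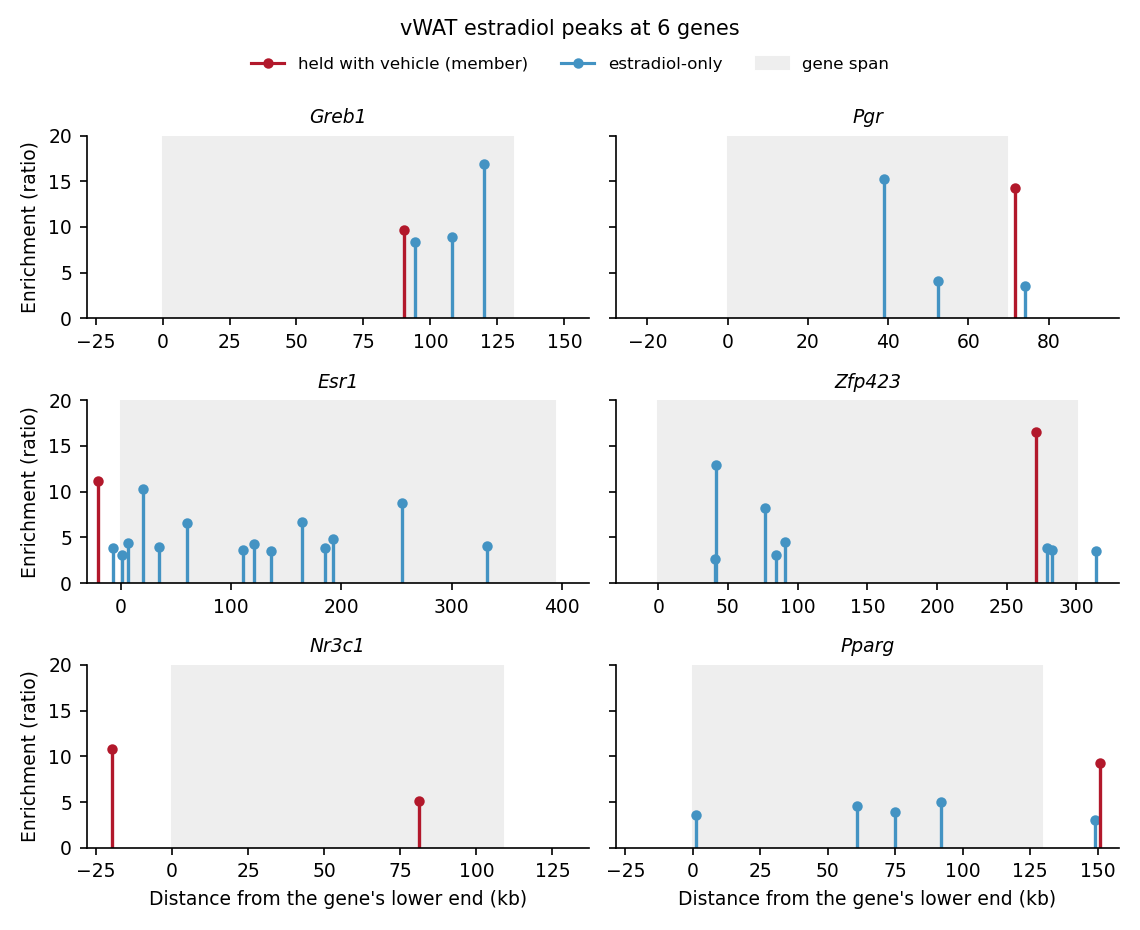
vWAT estradiol peaks at 6 genes, placed by the distance of the summit from the gene's lower end (x axis, kb; grey, the gene span) with the authors' enrichment ratio as height (y axis); members are red and estradiol-only peaks blue. Each of the 6 genes has a member, at Nr3c1 both peaks are members, and at Greb1 and Pgr the highest peak is an estradiol-only one (16.9 and 15.3).

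The metabolic lists follow, and differences between lists were not tested. Genes of fatty acid and triglyceride synthesis had a member at 5 of 18 and an estradiol-only peak at 15 of 18. Fasn, the fatty acid synthase gene, had a member 5.74 kb outside the gene with 10.0 with estradiol, 4.09 with vehicle, 4.46 in scWAT and 4.83 in Liver. A stronger held peak lay 9.40 kb outside Fasn, with 18.6 with estradiol and 17.4 with vehicle. It is at a gene end and in all 3 other lists, and so is no member. Mlxipl, the carbohydrate response factor ChREBP, had a member at 4.99 and 5.26. Fatty acid uptake genes had a member at 3 of 14 and an estradiol-only peak at 9 of 14. Cav1 and Cav2, the neighbouring caveolin genes, shared a member at chr6:17308308-17308983 with 10.3 with estradiol, 3.76 with vehicle and 7.30 in scWAT. Cd36, the fatty acid translocase gene, chosen after its values were seen, had one at 9.23 and 3.82. Triglyceride breakdown and droplet genes had a member at 1 of 18 and an estradiol-only peak at 15 of 18, and insulin and glucose genes at 1 of 18 and 16 of 18. These single members were at Cidea, a droplet protein gene (4.09 with estradiol, 4.84 with vehicle), and at Akt2, the insulin-signalling kinase (4.59 and 5.83), and neither was in another list. Adipokine genes had a member at 1 of 16, Nampt (6.29 and 3.79), where an estradiol-only peak reached 11.7. The counts of 1 lie near the 7.75% of all genes. Within 100 kb these 3 lists had 3 of 18, 3 of 18 and 4 of 16, against 7 of 18 for synthesis and 4 of 14 for uptake. Of all genes, 18.98% had a member within 100 kb.

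Circadian clock genes had a member at 5 of 16 and an estradiol-only peak at 13 of 16. Arntl, which codes for BMAL1, had 2 members at 7.14 and 3.91 with estradiol beside a peak of 18.1 that was held in all tissues and so is no member. Per2 had a member at 8.46 with estradiol, 4.58 with vehicle, 5.45 in scWAT and 4.66 in Liver. Matrix and stroma genes had a member at 7 of 18 and an estradiol-only peak at 14 of 18, among them the collagen gene Col1a2 (6.67 and 4.05) and Timp1, an inhibitor of matrix proteases (8.93 and 5.75). The latter peak lay 21.7 kb outside Timp1, in the start window of another gene. C/EBP, AP-1 and stress factor genes had a member at 3 of 16, with Fosb at 11.4 and 3.81 and Klf2 at 4.47 and 5.14. Fosb also had held peaks that are no members, at 9.92 and 7.48 and at 5.59 and 7.53.

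For lists of other cell types and of DNA looping the counts lay mostly near the share over all genes. Brown fat genes had a member at 1 of 12 (Cidea), hepatocyte genes at 1 of 12 (G6pc, 5.64 and 5.21), endothelial genes at 2 of 10 (Vwf, 5.42 and 4.84, and Tek, 3.61 and 3.83), mesothelial genes at 1 of 10 (Wt1, 4.97 and 4.30), macrophage genes at 0 of 10 and genes of DNA looping at 1 of 10 (Stag1, 4.18 and 3.71). Of these, only the Stag1 member was in another list, scWAT. Within 100 kb, where 18.98% of all genes had a member, the counts were 4 of 12 for brown fat and 2 of 12 for hepatocytes. They were 4 of 10 for endothelium, 3 of 10 for mesothelium, 1 of 10 for macrophages and 1 of 10 for looping.

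Most genes with a member had 1: 1521 had 1, 135 had 2 and 20 had 3 or more. The germ cell bridge gene Tex14 had 5 members within its 150.8 kb, at 3.70 to 8.63 with estradiol, of which 4 were in Liver and 4 in scWAT. Its neighbouring members at chr11:87448196-87448530 and chr11:87448584-87449051 had the same vehicle value (4.30) and the same Liver value (4.75). A single vehicle or Liver peak may thus count for both. Over all members, 10 vehicle peaks touched 2 members each. The chromatin remodeller gene Chd9 had 4, with the strongest at chr8:90862274-90863032 (17.0 with estradiol, 7.70 with vehicle, 13.2 in scWAT), and none in Liver. Arhgap26, which codes for a GTPase-activating protein, had 4 members among 35 peaks, with a strongest value of 13.6, and 1 of the 4 is the stronger Nr3c1 member (10.8), and Zbtb20, a zinc finger repressor gene, had 4 among 16. Pknox2, a homeobox gene, had 3, at 18.4, 9.35 and 4.37 with estradiol and 7.43, 3.89 and 4.17 with vehicle.

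At the threshold of 1 kb, the members just inside lay 1002, 1003 and 1016 bp from a gene end, with an enrichment of 6.23, 4.78 and 3.97 with estradiol and 4.23, 6.78 and 3.67 with vehicle. The held peaks just outside lay at 1000, 998 and 997 bp, with 6.31, 5.57 and 9.94 with estradiol and 6.77, 6.66 and 10.2 with vehicle. The smallest overlaps that made a member were 3, 3 and 4 bp, at peaks of 3.81, 3.49 and 4.54 with estradiol. The nearest misses had a gap of 1, 3 and 12 bp to a vehicle peak, at 4.90, 7.01 and 4.24.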

How the data were processed

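ERα ChIP-seq peak lists of 5 groups were used, 1 list per group. The submitters' processing notes name the build mm10 and, with no role, HOMER and BWA 0.7.12. The sources used here do not give the peak caller, its control, its threshold or the way libraries were merged. The authors deposited for each peak an enrichment ratio, a −log10 p-value, a −log10 q-value, a score and a summit position. Peaks on chromosomes 1 to 19 and X were used, with an overlap of at least 1 bp as the rule for a shared peak. A member's value in another list is that of its strongest overlapping peak there. Gene spans and start windows came from RefSeq GRCm38.p6, the assembly of mm10, without exons or a genome. Motifs were therefore searched in start windows in place of peaks, and chromosome 18 had no such windows and was not analysed there.

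The members, the 17 gene lists, the alternatives and the rule for names were chosen with earlier results of these data known. Names follow this rule: the 8 strongest members by each vWAT list, the 2 strongest of each pattern, the 5 genes with most members, up to 2 genes of each list by strongest member, and Greb1, Pgr and Esr1, with a gene named within 50 kb. A gene that the rule gives is not reported here. Klf15, Nfia, Pparg, Vdr, Ncoa2, Rxra, Cd36, Thra, Nr1d1, Col3a1, Col5a2, Ybx1, Kcnq1ot1, Dcaf11, Ibtk, Fuz and the sequences shown were chosen after their values were seen. Overlap and distance code was tested on simulated data. Scripts ran in Python 3.11.15 with scipy 1.17.1, pandas 2.3.3 and numpy 2.4.6, and figures were drawn with matplotlib 3.10.9. Coordinates are mm10 and count from 1.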

Additional observations from a re-analysis of the deposited data

How the results depend on the processing

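The 9 main values were recomputed under 9 alternatives, of which 2, without peaks in a start window and with the peaks found in all 3 other lists, were chosen after seeing the data. Of the 81 values, 45 stayed within the interval of the main value (for the number of members, within 1.5 times it) and 36 did not. In every alternative the members were in scWAT and in Liver more often than the estradiol-only peaks were.

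With lists held to the size of the shortest, 507 members were left, with 71.2% in scWAT, 21.7% in Liver, 28.2% in BAT and 45.8% inside genes, medians of 10.3 with estradiol and 5.92 with vehicle, and 59.6% and 1.82% of the estradiol-only peaks in scWAT and Liver. The members' BAT share then lay above their Liver share, the reverse of the order with the full lists. With summits within 100 bp as the rule for every list, 947 peaks were members, 84 of them not members by the 1 bp rule, with 58.7% in scWAT, 21.6% in Liver and medians of 6.88 and 4.93, against 28.0% and 3.20% of the estradiol-only peaks. Where each −log10 q-value had to reach 2, the members' scWAT and BAT shares were 72.3% and 8.23%, the medians 6.48 and 5.14, and the estradiol-only shares 39.5% and 4.19%. With an overlap of at least 0.5 of the shorter peak, the estradiol median was 6.02 and the estradiol-only shares 36.3% and 5.08%. Over 5 kb from gene ends, 23.8% of members were in Liver and 44.7% inside genes. Over 1 kb from the ends of genes of any type these were 26.5% and 52.5%, and without peaks in a start window 25.7% and 47.0%. With the peaks found in all 3 other lists, 73.2%, 39.6% and 25.3% of 1764 were in scWAT, Liver and BAT, and the medians were 6.16 and 4.71, by construction of that alternative. For the others the cause was not tested.

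With 10 kb or 100 kb in place of 25 kb, 4.98% or 18.98% of genes had a member, and 6 or 11 of the 17 list counts moved by over 1.5 times. No paired analysis was possible because each group has 1 list. Leaving out a replicate and the motif search around summits were not run, for want of values per library and of a genome. The groups differ in their number of libraries, and this number and the tissue cannot be told apart. Nor can it be told apart from the hormone in vWAT, which had 4 libraries with estradiol and 2 with vehicle.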

Other observations

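On chromosome 7 the members had 7.48% of their peaks, against 5.64% of the estradiol-only peaks, and on chromosome 14 they had 2.81% against 4.21%. Chromosome X held 29 members (1.94%), against 1.34% of the estradiol-only peaks. Of all vWAT estradiol peaks, 6.56% were on chromosome 7, 3.82% on chromosome 14 and 1.48% on chromosome X. These shares are values with no test.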
